A study of Saccharomyces cerevisiae with 24 samples.

Results

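Transfer RNA genes were examined in a sub-nucleosomal MNase-seq time course of budding yeast, which maps short DNA fragments (under 100 bp) that a protein smaller than a nucleosome covered during digestion with micrococcal nuclease. A peak was counted as a tRNA gene peak when its position lay inside a nuclear tRNA gene of the S288C reference (R64, the same assembly as sacCer3) or at most 200 bp from one. Of the 58467 peaks in the table, 560 met this rule, of which 200 lay inside a tRNA gene, 184 upstream of its first base and 176 downstream of its last base. They belonged to 272 of the 275 annotated tRNA genes. The genes without a peak were YNCB0015W, YNCD0011W and YNCJ0011W. Each of the 200 genes with a peak inside held a single such peak, and neighbouring peaks lay at least 100 bp apart.

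The SSDDCS strain over-expresses a set of limiting replication initiation proteins (Cdc45, Dbf4, Dpb11, Sld2, Sld3, Sld7) from the galactose-inducible GAL1-10 promoter, and was set against a control strain without these constructs. Cells of both strains were arrested in G1 with alpha factor, received galactose, and were released into S phase in galactose. Each strain gave 1 library in G1 and 1 at each of 11 time points from 5 to 60 min, so that there were 12 SSDDCS and 12 control libraries and no replicate of any strain and time point. In the SSDDCS strain PGAL1-10 stands between Sld7 and Cdc45 at leu2 (marker LEU2), between SLD3-A and Dbf4-A at his3 (marker HIS3), and between Sld2 and Dpb11 at trp1 (marker TRP1), and SML1 is deleted as sml1_delta::HphNT. The control strain carries sml1_delta::URA3. Both strains are W303 MATa haploids with can1-100, rad5-535, ade2-1, leu2-3, 112, his3-11, 15, trp1-1 and ura3-1, and both lack SML1, an inhibitor of ribonucleotide reductase, so no library comes from a strain with SML1. The strains therefore differ in the selection markers as well as in the over-expressed factors.

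tRNA genes are transcribed by RNA polymerase III from a promoter inside the gene. The factor TFIIIC binds the internal A box and B box, places TFIIIB just upstream of the transcription start, and TFIIIB recruits the polymerase, which can then re-initiate many times. In budding yeast these genes are short, are mostly free of nucleosomes, are known as places where replication forks slow down, and are favoured sites of Ty retrotransposon insertion, which leaves long terminal repeats (LTRs) beside many of them.

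The sequences below, taken from RefSeq R64 and written 5′ to 3′ on the transcribed strand, are shown because the peak in the gene was read against the promoter boxes they hold. Capitals mark the A box (TNGNNNA, 2 to 4 further bases of any kind, then GG, searched in the first 26 bases) and the B box (GNTCNANNC). YNCE0022C and YNCL0047W are the lysine tRNA genes with most reads, TRN1 (proline) and YNCB0018W (glutamate) are genes with fewer reads in SSDDCS, SUP61 (serine) is a gene with more, and YNCC0008W (methionine) had the fewest reads of all.
YNCE0022C: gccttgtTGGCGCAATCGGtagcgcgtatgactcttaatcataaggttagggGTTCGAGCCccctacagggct
YNCL0047W: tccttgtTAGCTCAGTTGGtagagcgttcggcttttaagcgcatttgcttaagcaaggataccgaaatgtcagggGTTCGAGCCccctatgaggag
TRN1: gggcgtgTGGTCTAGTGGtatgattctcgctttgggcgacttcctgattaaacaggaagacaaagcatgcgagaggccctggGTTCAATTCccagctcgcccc
YNCB0018W: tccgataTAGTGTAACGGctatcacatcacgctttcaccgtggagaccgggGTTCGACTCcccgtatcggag
SUP61: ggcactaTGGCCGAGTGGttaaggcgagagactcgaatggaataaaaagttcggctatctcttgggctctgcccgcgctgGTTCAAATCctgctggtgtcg
YNCC0008W: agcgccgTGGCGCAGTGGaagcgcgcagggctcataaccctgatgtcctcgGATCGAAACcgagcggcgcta

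Every one of the 275 tRNA genes held the B box, whose centre was the base 17 from the 3′ end, and 274 held the A box. The B box began with GTTC in 270 genes. It began with GATC in the other 5, which share the sequence printed for YNCC0008W: the 4 initiator methionine genes IMT1, IMT2, IMT3 and IMT4, and YNCC0008W itself. An intron was annotated in 60 genes and absent from 215. The genes had 70 distinct sequences, 242 of them shared theirs with at least 1 identical copy, and 136 had an LTR or Ty within 200 bp.

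The depth was low for single peaks. The SSDDCS libraries held 322973 to 365492 reads in peaks outside the ribosomal DNA array, and the control libraries 320996 to 372750. The reads in tRNA gene peaks numbered 4733 to 5922 in SSDDCS and 5520 to 6269 in control. Counts were scaled to the totals outside the ribosomal DNA, which left out the reads of that repeated array (normalised reads). A peak was called high-confidence when log2(normalised reads + 1), summed over the 24 libraries of both strains, was above 75. No test of the strains was run, because each strain and time point has 1 library and the time points of a strain are not independent replicates. The intervals given are exact 95% (Clopper-Pearson) intervals of the share of reads, which cover counting error only.

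Peaks inside tRNA genes were more often strong than the other peaks of the genome. Of the 200 peaks in a gene, 161 (80.5%) were high-confidence, as were 58 of 184 upstream (31.5%) and 89 of 176 downstream (50.6%), against 13.9% of all peaks outside the ribosomal DNA. The median peak held 11.8 normalised reads per library inside a gene, 5.88 upstream and 8.19 downstream, against 4.60 over all peaks outside the ribosomal DNA. The interquartile range over the peaks inside a gene was 8.63 to 16.1 reads. Among high-confidence peaks alone the levels were alike, with a median of 13.2 reads inside a gene and 12.1 reads for the 7803 high-confidence peaks elsewhere. That likeness follows in part from the rule, which cuts both sets at nearly the same level (lowest 8.10 reads inside a gene and 8.01 elsewhere). All tRNA gene peaks together held 1.61% of the reads outside the ribosomal DNA. Peaks 150 to 200 bp from a tRNA gene held a median of 5.82 reads (167 peaks), and those just beyond the limit, at 201 to 250 bp, held 6.79 (100 peaks).

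Most peaks in a gene lay near the B box. The peak lay a median of 6 bp on the 5′ side of the B box centre, with an interquartile range from -19 to 4 bp relative to that centre, and 157 of 200 (78.5%) lay within 20 bp of it, as did 46.3% of all bases of these genes. The positions were coarse. Around the genes described below, peaks of a gene mostly stood a multiple of 50 bp apart, as at 644971, 645221 and 645371 in YNCB0018W. Distances of a few bp, and the class of a peak near the end of a gene, were therefore not resolved for single genes. The B box letters GTTCNANNC occurred within 50 bp of the peak, on either strand, for 97% of the peaks in a gene, 1.09% of those upstream and 18.2% of those downstream, against 3.37% of the high-confidence peaks elsewhere and 4.37% of all peaks outside the ribosomal DNA. The share inside genes follows largely from the rule, since every tRNA gene holds the box and 78.2% of all bases of these genes have the letters within 50 bp. The 28 peaks in the first 80 bp upstream, where TFIIIB is known to sit, had a median of 12.2 reads, and the 156 peaks farther upstream had 5.33. The first 20 bases of the gene held few and weak peaks, 6 with a median of 2.91 reads and none high-confidence.

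**Figure D1:**
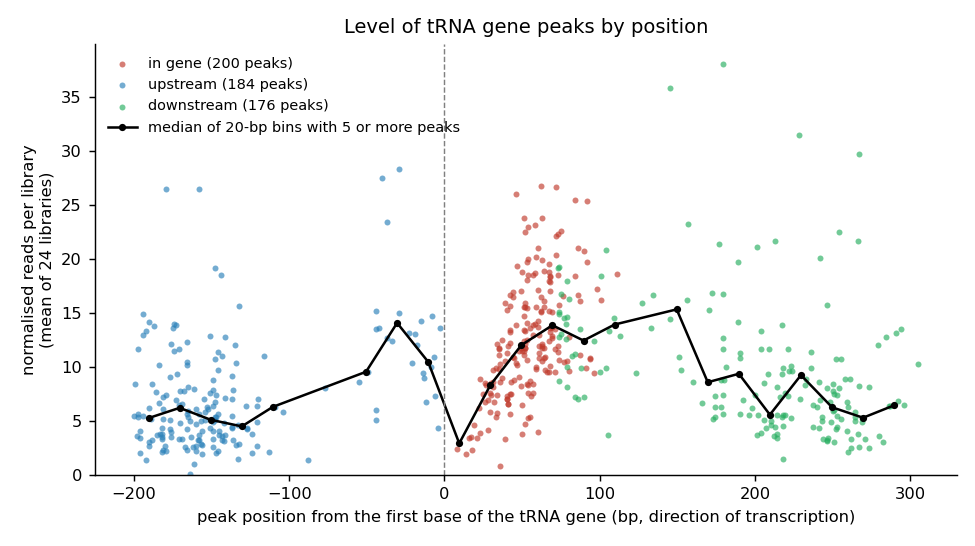
Normalised reads per library (mean of 24 libraries) of the 560 tRNA gene peaks against their position from the first base of the gene in the direction of transcription, with the median of 20-bp bins as a line. Peaks were sparse about 100 bp upstream of the start, weak in the first 20 bases of the gene, and high inside and just after the gene.

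The level of the peak in the gene varied among the isotypes, that is, the amino acids the tRNAs carry. Serine genes had the highest median, 18.5 normalised reads (13 genes with a peak inside, range 3.85 to 23.8). The tryptophan genes had a median of 18.4 (3 genes), proline genes 16.1 (9 genes) and aspartate genes 15.5 (11 genes). At the low end, alanine genes had 9.01 (12 genes), cysteine genes 8.55 (4 genes), methionine genes 8.23 (5 genes) and arginine genes 7.26 (9 genes, range 3.93 to 15.6). The ranges of all 20 isotypes overlapped, so neighbours in this order were not separated by more than the spread between genes. Genes of identical sequence differed in level. Among 168 genes in 30 groups of identical copies, 28.8% of the variance lay between the groups. That share is not corrected for the number of groups and so runs high. The SD within groups was 5.12 reads, against 5.51 over all of them. How reads that map to several copies were placed is not given, and the part of read placement in these levels was not tested. The 14 identical lysine genes that include YNCE0022C had 6 copies with a peak inside, at 3.80 to 26.7 reads. Genes with and without an intron had medians of 10.8 and 11.9 reads, and genes with and without an LTR or Ty within 200 bp had 12.1 and 11.7.

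**Figure D2:**
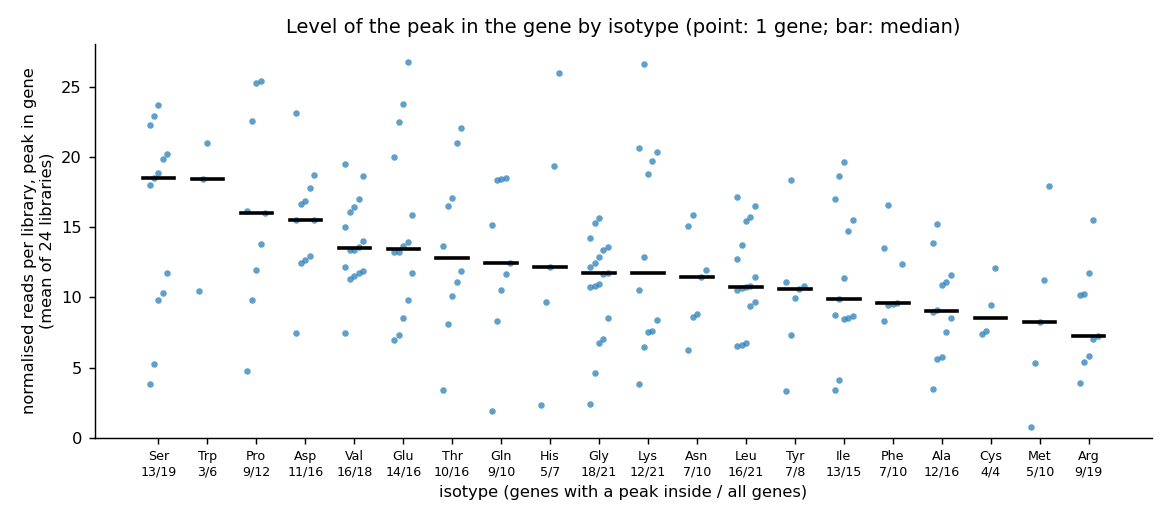
Normalised reads per library of the peak inside each tRNA gene (points, mean of 24 libraries) by isotype, with the median as a bar and the number of genes with a peak inside over all genes below each name. The medians ran from 18.5 for serine to 7.26 for arginine, and the points of all isotypes overlapped.

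Summed over all its peaks, a tRNA gene held a median of 19.4 normalised reads per library (interquartile range 14.9 to 25.1). The largest sum was that of YNCE0022C, a lysine gene on chromosome V (435752 to 435824, minus strand), with 49.9 reads from a peak at base 73, its last, and peaks on both sides. Its sum ran from 32.1 over a median of 50.6 to 59.4 reads in the 12 SSDDCS libraries, and from 43.2 over 52.5 to 65.8 in the 12 control libraries, so the strains overlapped. YNCL0047W, an intron-containing lysine gene on chromosome XII (875376 to 875471, plus strand), followed with 46.2 reads. YNCJ0029W (leucine, chromosome X) had 45.8, SUP2 (tyrosine, a nonsense suppressor gene, chromosome IV) 44.4 and YNCG0033W (isoleucine, chromosome VII) 42.9. The others of the 10 highest, between 38.6 and 41.7 reads, were the tryptophan genes YNCK0010W and YNCG0042C, the alanine gene YNCG0034W, the leucine gene SUP53 and the glycine gene YNCP0009W. The reads did not always come from inside the gene. In YNCG0033W 38.0 of them came from a peak 106 bp past its end, and YNCG0033W, SUP2, YNCG0042C and SUP53 had no peak inside.

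The initiator methionine genes, whose tRNA starts every protein, were among the weaker ones in summed reads. Such a sum also depends on the number of peaks, which was 1 for IMT4 and IMT2 and 2 for IMT1 and IMT3. IMT4 held 14.9 normalised reads per library, IMT1 13.1, IMT3 10.5 and IMT2 7.0, although their sequences are identical. YNCC0008W, on chromosome III (149920 to 149991, plus strand), has the same 72 bases and held 0.83, the lowest sum of the 272 genes. Its reads ran from 0 over a median of 1.05 to 2.08 in the SSDDCS libraries, and from 0 over 0 to 2.96 in the control libraries. It was at the floor in both strains, so no strain ratio is given. Genes were placed on the S288C reference, and whether the W303 strains carry this copy was not checked.

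In S phase the reads inside tRNA genes parted between the strains. The 200 peaks in a gene summed in SSDDCS to 2496 normalised reads in G1, 2700 at 5 min, 2709 at 10 min, 2530 at 15 min, 2178 at 20 min, 1994 at 25 min, 2171 at 30 min, 2124 at 35 min, 2189 at 40 min, 2302 at 45 min, 2355 at 50 min and 2519 at 60 min. In control they summed to 2602 in G1, 2661 at 5 min, 2592 at 10 min, 2777 at 15 min, 3048 at 20 min, 2624 at 25 min, 2563 at 30 min, 2585 at 35 min, 2639 at 40 min, 2447 at 45 min, 2809 at 50 min and 2682 at 60 min. The SSDDCS sums from 20 to 50 min lay below every control sum, but the gap was not even over that span: at 45 min the log2 ratio (SSDDCS over control) was -0.09, as at 60 min, between -0.27 at 40 min and -0.25 at 50 min. The strains were also close in G1 and at 5 and 10 min. In cultures, fewer cells with a covered site and fewer fragments per cell cannot be told apart. The spread between neighbouring libraries of a strain is the only scale for these differences that the design offers. The largest step was a log2 of -0.22 in each strain, from 15 to 20 min in SSDDCS and from 20 to 25 min in control.

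**Figure D3:**
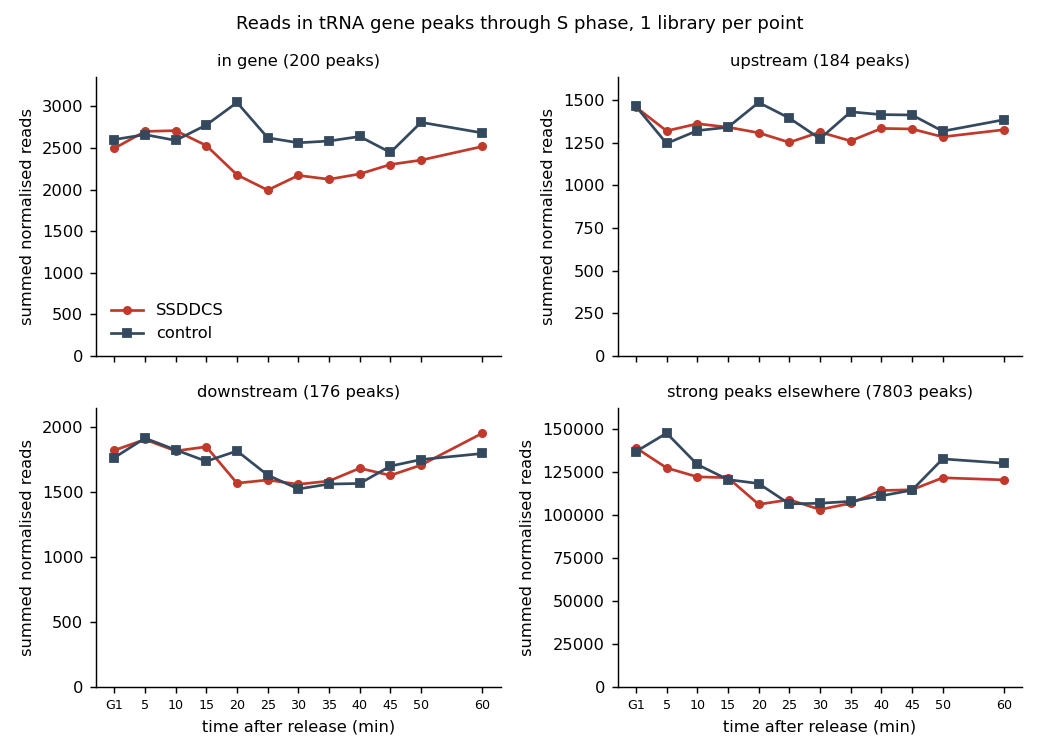
Summed normalised reads by time after release in SSDDCS (circles) and control (squares), 1 library per point, for peaks inside, upstream of and downstream of tRNA genes and for the 7803 high-confidence peaks elsewhere. Inside genes SSDDCS reached 1994 reads at 25 min and control 3048 at 20 min, while the other panels show closer lines.

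The strain ratio was lowest inside tRNA genes at 20 to 35 min, the span called mid S phase here for both strains. The study reports a faster S phase in SSDDCS, so the same minutes need not be the same stage of replication. The ratios are matched by minutes and not by stage. Summed over 20, 25, 30 and 35 min, a span chosen from earlier results of these data, the log2 ratio was -0.35 inside genes (interval -0.39 to -0.31), -0.12 upstream (-0.18 to -0.07) and -0.05 downstream (-0.10 to -0.00), against -0.05 for high-confidence peaks elsewhere (-0.05 to -0.04). For flank peaks at most 100 bp from the gene it was -0.26 upstream (-0.37 to -0.15), with -0.28 already in G1, and -0.17 downstream (-0.25 to -0.10), with -0.03 in G1. At 20 min alone the log2 ratio was -0.48 inside genes (-0.57 to -0.40) and -0.16 elsewhere. At 25 min it was -0.40 inside genes and 0.03 elsewhere. In G1 the ratio inside genes was -0.06 (-0.14 to 0.02), and at 10 min it was 0.06 (-0.02 to 0.14). Pooled over all 11 time points after G1 it was -0.19 inside genes (-0.22 to -0.17), lower than control at 9 of 11 with an SD of 0.17 over the time points. Upstream it was -0.06 (-0.09 to -0.03), and downstream 0.00 (-0.03 to 0.03), against -0.06 for high-confidence peaks elsewhere. Relative to the low-confidence peaks 1 to 10 kb from a tRNA gene, which served as a local background, the ratio inside genes in mid S phase was -0.33 (-0.38 to -0.29). That background differed between the strains by a log2 of -0.02 in mid S phase, and rose over G1 by 0.26 in SSDDCS and 0.27 in control.

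**Figure D4:**
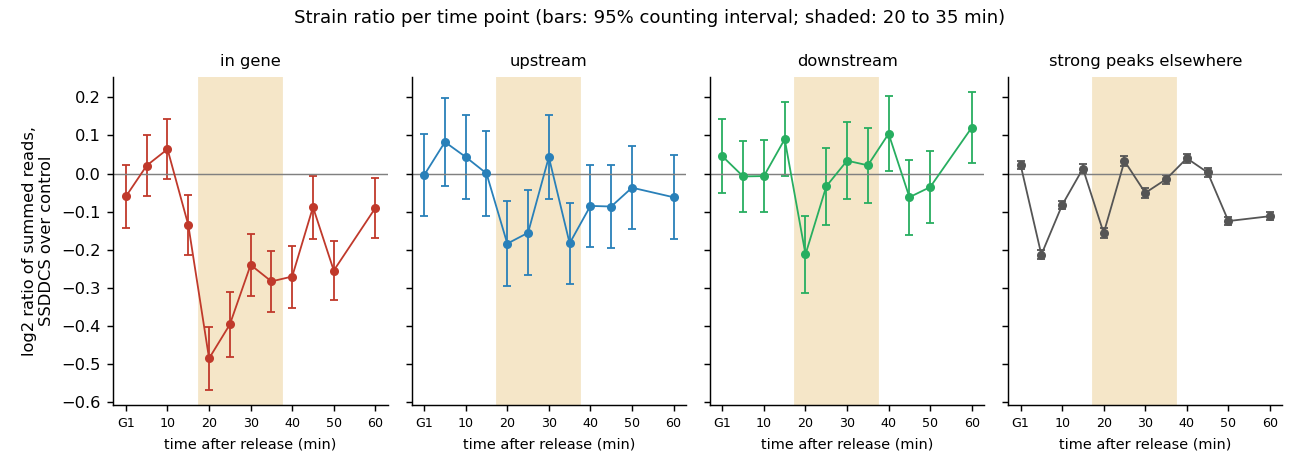
Log2 ratio of summed normalised reads, SSDDCS over control, at each time point for peaks inside, upstream of and downstream of tRNA genes and for high-confidence peaks elsewhere, with 95% counting intervals as bars and 20 to 35 min shaded. Inside tRNA genes the ratio reached -0.48 at 20 min, and elsewhere it stayed between -0.21 and 0.04.

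Whether the reads inside tRNA genes went down or up in S phase depended on what they were set against. Relative to G1, the mean of 20 to 35 min was lower by a log2 of -0.24 in SSDDCS (-0.30 to -0.17) and differed by 0.06 in control (-0.01 to 0.12). Reads in high-confidence peaks elsewhere were lower over the same span by -0.39 in SSDDCS and -0.32 in control. Relative to those peaks, the reads inside tRNA genes were higher than in G1 in both strains, by 0.15 in SSDDCS and 0.37 in control, so the sign in SSDDCS turned with the reference. The difference between the strains did not turn: relative to the peaks elsewhere, the strain ratio inside genes in mid S phase was -0.31. In the flanks the values lay below G1 in both strains, although the control interval upstream included 0. Upstream the mean of 20 to 35 min was -0.18 over G1 in SSDDCS (-0.27 to -0.10) and -0.07 in control (-0.15 to 0.02). Downstream it was -0.21 in SSDDCS (-0.29 to -0.13) and -0.11 in control (-0.19 to -0.04). Relative to the peaks elsewhere these signs turned too: upstream to 0.20 in SSDDCS and 0.25 in control, and downstream to 0.18 in SSDDCS and 0.21 in control.

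The lower mid S phase ratio was spread over the tRNA genes rather than carried by a few. Of the 200 genes with a peak inside, 167 (83.5%) had fewer reads in SSDDCS summed over 20 to 35 min, against 55.5% of the high-confidence peaks elsewhere. The median of log2((SSDDCS + 1)/(control + 1)) over genes was -0.31 (interquartile range -0.53 to -0.13). Of the 161 high-confidence peaks in a gene, 140 (87%) had fewer reads in SSDDCS over that span, against a background of 56.2% of all high-confidence peaks outside the ribosomal DNA. The same held for 39 of 58 upstream peaks (67.2%) and 52 of 89 downstream (58.4%). Over all times after G1, 135 of 161 peaks in a gene (83.9%) were lower in SSDDCS, against a background of 60.5%. By isotype, the ratio in mid S phase was below 0 for 20 of 20, from -0.53 to -0.16, and its interval lay below 0 for 18 of them. High-confidence peaks elsewhere pooled to -0.05 over that span (-0.05 to -0.04), so they lay below 0 too. All isotypes come from the same libraries and are not separate observations of the strains.

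The mid S phase strain ratio was alike in the subsets of tRNA genes that were compared, which is a description without a test. In mid S phase the log2 ratio of reads inside the gene was -0.37 with an LTR or Ty within 200 bp (96 genes) and -0.34 without (104 genes). It was -0.40 with an intron (44 genes) and -0.34 without (156 genes), and -0.29 for genes of unique sequence (26 genes) and -0.36 for genes with identical copies (174 genes). Genes within 5 kb of an annotated replication origin had -0.34 (81 genes) and those farther away -0.37 (119 genes). Genes transcribed towards the nearest origin, which meet a fork from it head-on, had -0.40 (91 genes; -0.46 to -0.34), and those transcribed away from it -0.31 (109 genes; -0.37 to -0.26). Genes within 20 kb of a centromere had -0.40 (21 genes; -0.52 to -0.28). The intervals of each pair overlapped. Among upstream peaks, the 28 in the first 80 bp had -0.25 (-0.37 to -0.14), with -0.27 already in G1, and the 156 farther away had -0.08 (-0.14 to -0.02).

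Single peaks rarely stood apart from the background of all strong peaks. A 2-fold difference in either direction in at least 1 of the 11 pairs of libraries after G1, a rule taken from the study, was met by 203 of 308 high-confidence tRNA gene peaks (65.9%), against a background of 65.5%. Inside genes it was met by 107 of 161 (66.5%). In G1, 16 of 161 peaks in a gene were past 2-fold, against a background of 8.69%. The direction differed more than the number. At 20 min, 23 of 161 peaks in a gene (14.3%) were past 2-fold lower in SSDDCS and 2 past 2-fold higher, against backgrounds of 7.24% lower and 4.04% higher. At 25 min, 26 (16.1%) were past 2-fold lower and 3 higher, against 5.28% and 6.18%. Fewer reads in SSDDCS at 9 or more of 11 time points were seen for 32 of 161 peaks in a gene (19.9%) and more reads for 0, against backgrounds of 9.23% and 5.93%. Pooled over the 11 time points, 5 peaks in a gene were past 1.5-fold lower and 0 higher, against 1.17% and 1.27%.

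Per gene, with all peaks summed and at least 10 normalised reads per library, 245 tRNA genes were compared. The pooled ratio was lower in SSDDCS for 168 (68.6%) and higher for 77, with a median log2 of -0.09. Past 1.5-fold were 2 genes lower and 0 higher. At 9 or more of 11 time points, 34 genes were lower (13.9%) and 4 were higher (1.63%). The backgrounds over single high-confidence peaks, which mostly hold fewer reads than a gene sum, were 60.5% pooled lower, 1.17% and 1.27% past 1.5-fold lower and higher, and 9.23% and 5.93% lower and higher at 9 or more time points, so these counts of genes lay nearer to the background than those of the peaks inside genes. The genes described next are the 5 of largest pooled ratio among the lower ones and all 4 of the higher ones, so that their ratios are a description and carry no test.

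TRN1, an intron-containing proline gene on chromosome I (139152 to 139254, plus strand), had the lowest ratio. Its single peak lay inside the gene at base 76, and ran from 7.16 over a median of 16.6 to 36.7 normalised reads in the SSDDCS libraries, and from 15.8 over 29.4 to 38.8 in the control libraries. In SSDDCS it was lowest at 25 min, and only at 5 min did SSDDCS lie above control. Its pooled log2 ratio was -0.72 (-0.99 to -0.46), lower in SSDDCS at 10 of 11 time points. In G1 it held 19.3 reads in SSDDCS and 20.3 in control. YNCH0004C, a serine gene on chromosome VIII (133026 to 133107, minus strand), had a single peak placed 1 bp past its annotated end. At the coarse spacing of the positions, inside and outside cannot be told apart for it. It held 3.82 over 9.49 to 13.3 reads in SSDDCS and 7.77 over 14.6 to 17.6 in control. Its pooled log2 ratio was -0.59 (-0.97 to -0.22), and in G1 it already held 4.29 reads in SSDDCS and 10.2 in control.

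YNCB0018W, a glutamate gene on chromosome II (645167 to 645238, plus strand), was lower in SSDDCS at all 11 time points. Its 3 peaks summed to 15.3 over 19.7 to 31.5 reads in SSDDCS and 22.3 over 29.1 to 40.5 in control, and the pooled log2 ratio was -0.53 (-0.78 to -0.29). In G1 it held 21.4 reads in SSDDCS and 22.3 in control, so the strains started alike. YNCM0020W, a histidine gene on chromosome XIII (363064 to 363135, plus strand), had its only peak 15 bp upstream of the start. That is near the region of TFIIIB, at the coarse spacing of the positions. Its pooled log2 ratio was -0.52 (-0.86 to -0.19), but in G1 it already held 11.8 reads in SSDDCS and 19.3 in control. YNCE0008C, a glutamine gene of unique sequence on chromosome V (131082 to 131153, minus strand), had -0.47 (-0.76 to -0.18). It held 11.9 over 16.5 to 21.4 reads in SSDDCS and 13.2 over 21.2 to 29.2 in control. In G1 the order was the reverse, with 19.3 reads in SSDDCS and 13.2 in control.

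The genes with more reads in SSDDCS showed smaller ratios, and most of their reads came from outside the gene. SUF4, a glycine gene known for frameshift suppressor alleles on chromosome VII (779616 to 779687, plus strand), had a pooled log2 ratio of 0.35 (0.06 to 0.64). Its upstream peak 9 bp from the start had a ratio of -0.04, and its downstream peak, 170 bp past the end, 0.82. SUP61, the only copy of an essential serine tRNA gene on chromosome III (227942 to 228042, plus strand), had 0.28 (0.00 to 0.57). Its sum ran from 14.3 over 20.0 to 27.1 reads in SSDDCS and from 8.36 over 15.0 to 36.7 in control, with the highest control value at 20 min. YNCC0014W, the threonine gene beside the silent mating locus HMR that is known as a barrier to silencing, had 0.20 (-0.09 to 0.49), with peaks 24 bp past its end and 104 bp upstream of its start. YNCE0028C, an arginine gene on chromosome V, had 0.17 (-0.04 to 0.38). In G1, SSDDCS and control held 16.1 and 20.3 reads at SUF4, and 31.1 and 47.7 at YNCE0028C. SUP61 held 15.0 and 10.2, and YNCC0014W 17.1 and 11.2, so both were higher in SSDDCS before release.

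**Figure D5:**
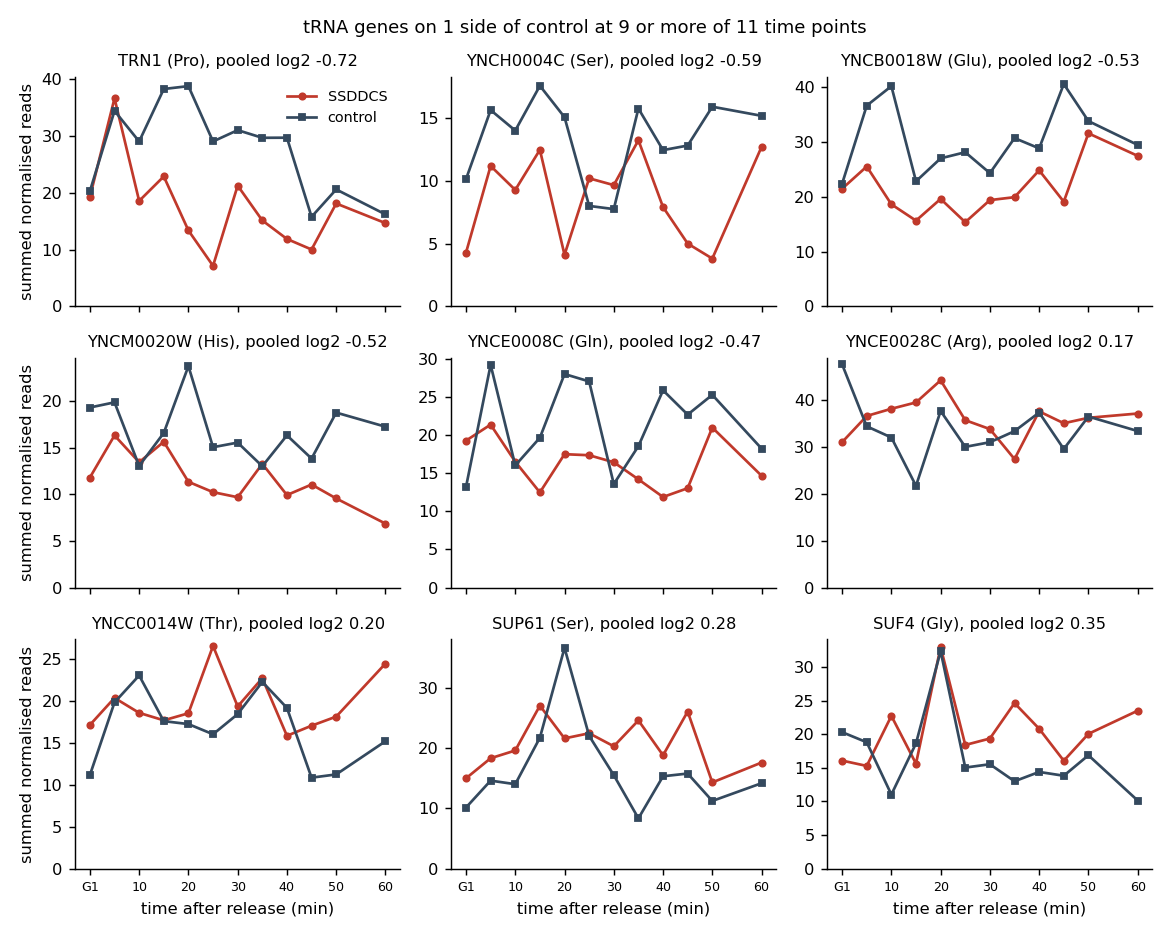
Summed normalised reads of the peaks of 9 tRNA genes by time after release in SSDDCS (circles) and control (squares), 1 library per point, ordered by pooled log2 ratio from TRN1 (-0.72) to SUF4 (0.35). The lines of SSDDCS run below control in the first 5 panels and above it in the last 4, and they cross at single time points.

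Other genes had been chosen for their known roles. SUP4, the tyrosine gene used as a nonsense suppressor in yeast genetics, held 3.01 over a median of 9.32 to 15.5 reads in SSDDCS and 6.72 over 12.6 to 23.8 in control, and its pooled log2 ratio was -0.42 (-0.80 to -0.04). In G1 it held 9.65 reads in SSDDCS and 12.2 in control. The initiator genes had pooled log2 ratios of -0.29 for IMT1, 0.04 for IMT2, -0.20 for IMT3 and -0.02 for IMT4, each with an interval that included 0. Of the 10 genes with most reads, 9 had a pooled log2 ratio from -0.27 to -0.14. The exception was SUP53, a leucine gene on chromosome III (90859 to 90972, plus strand) that lies beside LEU2, with 0.25 (0.05 to 0.45). Its reads ran from 29.7 over 40.4 to 71.8 in SSDDCS and from 23.8 over 36.2 to 45.7 in control. The highest value of each strain was that in G1, so SSDDCS was higher before release too. The higher level came from the peak 154 bp past its end, at 0.44, and not from the peak 184 bp upstream, at -0.31. The SSDDCS strain carries a LEU2 marker that the control strain lacks, and the part of this marker in the value was not tested.

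RNA polymerase III genes that are not tRNA genes were set beside them, with the peaks in and beside each gene summed. The pooled log2 ratio was 0.02 (-0.22 to 0.25) for SNR6, which encodes the U6 spliceosomal RNA. It was 0.07 (-0.23 to 0.38) for SCR1, the RNA of the signal recognition particle, -0.01 (-0.17 to 0.15) for RPR1, the RNA of RNase P, and -0.03 (-0.23 to 0.17) for SNR52, a small nucleolar RNA. In mid S phase they ranged from -0.31 to -0.10, and the interval of RPR1 alone (-0.60 to -0.02) excluded 0. The like values for all 560 tRNA gene peaks were -0.10 (-0.12 to -0.08) pooled and -0.20 (-0.23 to -0.18) in mid S phase. Both lay inside the intervals of each of these genes, but these intervals are too wide to show that the genes are alike. Peaks inside tRNA genes alone had -0.19 pooled (-0.22 to -0.17) and -0.35 in mid S phase. For RPR1, whose 2 peaks both lay inside the gene, the pooled interval did not include that -0.19. Its mid S phase interval did include the -0.35. The promoters of the genes that encode the RNA polymerase III machinery were taken as a fixed list of 20 genes: 6 of TFIIIC, 3 of TFIIIB, the repressor MAF1 and 10 subunits of the polymerase. In the 1000 bp before the start codon, 15 of the 20 had a high-confidence peak, 18 peaks in all, and 0 were past 1.5-fold lower and 0 higher when pooled, against backgrounds of 1.17% and 1.27%. Beside shares that low, a count of 0 among 18 peaks says little about these promoters. The strongest promoter peak of each of the 20 genes, high-confidence or not, had a median pooled log2 ratio of -0.16. The median of all high-confidence peaks outside the ribosomal DNA was -0.07. The values ran from -0.55 at TFC6, a subunit of the part of TFIIIC that binds the B box, to 0.38 at RPC34. The peak of RPC34 held only 5.24 reads, was not high-confidence and had an interval that included 0 (-0.18 to 0.94).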

How the data were processed

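Sub-nucleosomal MNase-seq was measured in 24 libraries, 1 per strain and time point. Following the methods of the study, fragments were mapped by the authors with Bowtie2 (2.2.6 in the submitters' notes, with SAMtools 0.1.19) to the S288C genome, equal numbers of reads were drawn per fragment size, peaks were called on all libraries merged, and whole read counts per peak were deposited. Drawing equal numbers hides differences in depth and fragment length. The treatment of reads that map to several places, the counting window and whether positions count from 0 or 1 are not given in the sources used here, and 242 tRNA genes have identical copies. All positions fitted the R64 chromosomes and 0 columns of values lacked a sample. Libraries named 0 were taken as G1. No pair of libraries held identical counts.

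Counts were scaled to column totals without the ribosomal DNA array, in Python 3.11.15 with pandas 2.3.3, NumPy 2.4.6 and SciPy 1.17.1, and the scripts were tested on simulated counts. The pseudocount was 1, chosen here. Each peak went to its nearest tRNA gene, and 6 lay within 200 bp of more than 1. Named were the 10 genes with most reads, up to 5 in each direction with 1 sign at 9 or more of 11 time points, the gene of lowest sum, the initiator genes, SUP4, YNCC0014W and other RNA polymerase III genes. SUP53 was described beyond its values because of its position. The members and lists were chosen with earlier results of these data known. Alternatives were the scaling, window, filter, repeats, gene copies, pseudocount, folds and time points left out. With 1 library a group no p-value was computed.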

Additional observations from a re-analysis of the deposited data

How the results depend on the processing

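The lower reads inside tRNA genes in SSDDCS kept their sign under every alternative computed: 20 for the log2 ratio pooled after G1 (-0.22 to -0.13, main value -0.19) and 12 for that of mid S phase (-0.39 to -0.29, main value -0.35). These are not independent checks. The window of 100 bp cannot change peaks inside a gene, and the values with a time point left out share most of their libraries. With library totals that include the ribosomal DNA the ratio inside genes was -0.15 after G1 and -0.29 in mid S phase, and the course over G1 was -0.065 in SSDDCS and 0.14 in control. With median of ratios size factors these values were -0.15, -0.29, 0.094 and 0.31, so the SSDDCS course turned positive. Relative to high-confidence peaks elsewhere they were -0.13, -0.31, 0.15 and 0.37, and among genes of unique sequence -0.16, -0.29, -0.45 and -0.038, with 0.12 in G1. Relative to the mean of G1, 5 and 10 min the SSDDCS course was -0.32, and without 20 and 25 min the ratio after G1 was -0.14. Leaving out each time point in turn gave -0.22 to -0.16 after G1, -0.39 to -0.31 in mid S phase, and courses of -0.25 to -0.21 in SSDDCS and -0.0066 to 0.081 in control, with the values nearest 0 for the strain ratios and for control when 20 min was left out.

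In the flanks, where values were small, signs turned more easily. With median of ratios size factors the course over G1 was 0.15 upstream in SSDDCS, and downstream 0.12 in SSDDCS and 0.15 in control. Relative to high-confidence peaks elsewhere these were 0.20, 0.18 and 0.21, and among genes of unique sequence 0.14, 0.083 and 0.20. The downstream strain ratio in mid S phase was 0.0095 with totals that include the ribosomal DNA, 0.0077 with median of ratios size factors, 0.11 among genes of unique sequence, and -0.078 to 0.0067 with a time point left out, the highest without 20 min. With a window of 100 bp the flank ratios were lower, at -0.26 upstream and -0.17 downstream in mid S phase, and -0.20 upstream and -0.033 downstream after G1. The upstream ratio after G1 was 0.011 without genes beside an LTR or Ty and 0.0067 relative to peaks elsewhere. The ratio of SUF4 was -0.036 with a window of 100 bp, which leaves out its downstream peak.

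The count of 203 tRNA peaks past 2-fold was 108 without genes beside an LTR or Ty, 25 for genes of unique sequence, 442 with no filter on low counts, 16 with a pseudocount of 10, 53 at 3-fold, and 187 to 200 with a time point left out; the subsets hold fewer peaks by construction. The count of genes past 1.5-fold lower was 1 with either other scaling or without 20 min and 1 to 2 with a time point left out, 5 with a window of 100 bp, 0 without genes beside an LTR or Ty, for unique sequences or at 2-fold, and 30 at the lower fold limit tried. The count of genes higher was 1 with no filter and 2 at the lower fold limit, and 0 with any time point left out. Without the filter, the median peak in a gene held 2.57 times that of all other peaks, against 1.09 times among high-confidence peaks. The comparisons with the mean of G1, 5 and 10 min, without 20 and 25 min, and of the strain ratios with peaks elsewhere, and all those of the mid S phase strain ratios and of single genes, were chosen after seeing the data.

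No replicate exists for any strain and time point, so a difference between cultures cannot be told apart from a difference between strains, and time points of a culture are not replicates. A tRNA gene held 19.4 reads per library in the median, which leaves single genes with wide counting intervals. Libraries of the strains share time points, and the strain ratios set them side by side by time; no blocked test was run on them, because each strain and time point holds a single library.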
